A study of Danio rerio with 4 samples.

Results

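Heat shock proteins and their co-chaperones were followed as one gene module across sorted single cells of zebrafish larvae. The members were all features whose symbol starts with hsp or dnaj and that held at least 10 unique molecular identifiers (UMIs, each standing for 1 captured RNA molecule) over the deposited matrices. The rule gave 87 members of 27758 features, 36 with an hsp and 51 with a dnaj symbol; 88 features had such a symbol, and hspa12a.2 was left out with no UMI. The 4 libraries were 1 per group: ALK5i at 3 days post fertilization (dpf), DMSO at 3 dpf, ALK5i at 6 dpf and DMSO at 6 dpf. ALK5i embryos had received 20 µM SB431542, an inhibitor of the TGF-β type I receptor ALK5, and DMSO embryos only the solvent, both between 30 and 50 hours post fertilization. All embryos were dechorionated and kept in E3 medium at 28 °C in wells of 40 to 50. Larvae were minced whole and digested with Liberase for 10 minutes at 37 °C before sorting, in all groups alike. The sorted cells were gata2b GFP+ at 3 dpf and mpeg1.1 mCherry+ at 6 dpf, so stage and sort changed together. The series addresses embryonic TGF-β signalling in blood stem cell clonality and inflammation.

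Chaperones bind proteins that are not yet folded or have lost their fold. HSP70 proteins clamp onto exposed stretches of a client in a cycle driven by ATP. J-domain proteins, whose genes carry dnaj names, deliver clients and start that cycle, and exchange factors of the HSP110 family end it. HSP90 proteins finish the folding of kinases and receptors, the chaperonin pair hspd1 and hspe1 folds proteins inside mitochondria, and small HSPs hold unfolded proteins until the others act. Some of these genes are read in every cell at all times. Others are switched on by the heat shock factor Hsf1 after heat or proteotoxic stress, or, for the chaperones of the endoplasmic reticulum (ER), by the unfolded protein response. Roles named below are those known in mammals unless zebrafish is named.

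Cells were grouped here into classes from marker genes, and a class is called X-like. The kept cells numbered 25543 (ALK5i) and 31396 (DMSO) at 3 dpf and 1179 (ALK5i) and 1980 (DMSO) at 6 dpf, with median depths of 1740 and 2316 UMIs at 3 dpf and 6452 and 5681 UMIs at 6 dpf. Macrophage-like cells numbered 9204 and 9595 at 3 dpf and 258 and 398 at 6 dpf, and cells like hematopoietic stem and progenitor cells (HSPC-like) 1070 and 1348 at 3 dpf. The sorts also held other tissues: pigment cell-like cells alone were 27.8% (ALK5i) and 35.2% (DMSO) of the kept cells at 3 dpf. The 3 dpf libraries shared 248 cell barcodes, the 6 dpf libraries 3, and each other pair 13 to 28. Levels are UMIs summed over the cells of a class scaled to 1e6 UMIs of that class (CPM). The kit counts transcript ends, so levels of different genes can be set side by side without a correction for length. With 1 library per group there is no test of any difference, since the effect of treatment cannot be told apart from that of the embryo pool or the library. Intervals in square brackets or given as ranges after a ratio are exact 95% intervals that cover counting error only. A member is called higher or lower when the levels differ at least 1.5-fold (0.58 on the log2 scale).

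The members were first sorted by how many cells carried them. Each cell was thinned to 1000 UMIs and cells below that were left out, which put classes and libraries at one depth. Across the 37 combinations of class and library with at least 50 such cells, 3 members had a UMI in at least 10% of cells everywhere and are called broad, 34 passed 10% in some combinations only and are called patchy, and 50 stayed below 10% in every one and are called rare. The same split was not made over all features. Patchy is a wide group: hsp90aa1.2 reached 10% in 36 combinations, hspa5 in 31, hspa4a, hspa9 and dnaja2a in 30 each, and hspa4b and dnajb1a in 1 each. The name patchy thus does not by itself tell stress-induced from constitutive members. The broad members were hsp90ab1, hspa8 and hspe1. The share of cells with the cytosolic HSP90 gene hsp90ab1 lay between 51.8% in erythroid-like ALK5i cells and 99.6% in lymphoid-like ALK5i cells of 3 dpf. For hspa8, the HSP70 of unstressed cells, it lay between 42.3% in neural progenitor or glia-like ALK5i cells of 6 dpf and 91.3% in macrophage-like DMSO cells of 3 dpf. For the mitochondrial co-chaperonin hspe1 it lay between 13.9% in neutrophil-like DMSO cells of 3 dpf and 73.1% in neural progenitor or glia-like ALK5i cells of 6 dpf.

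**Figure D1:**
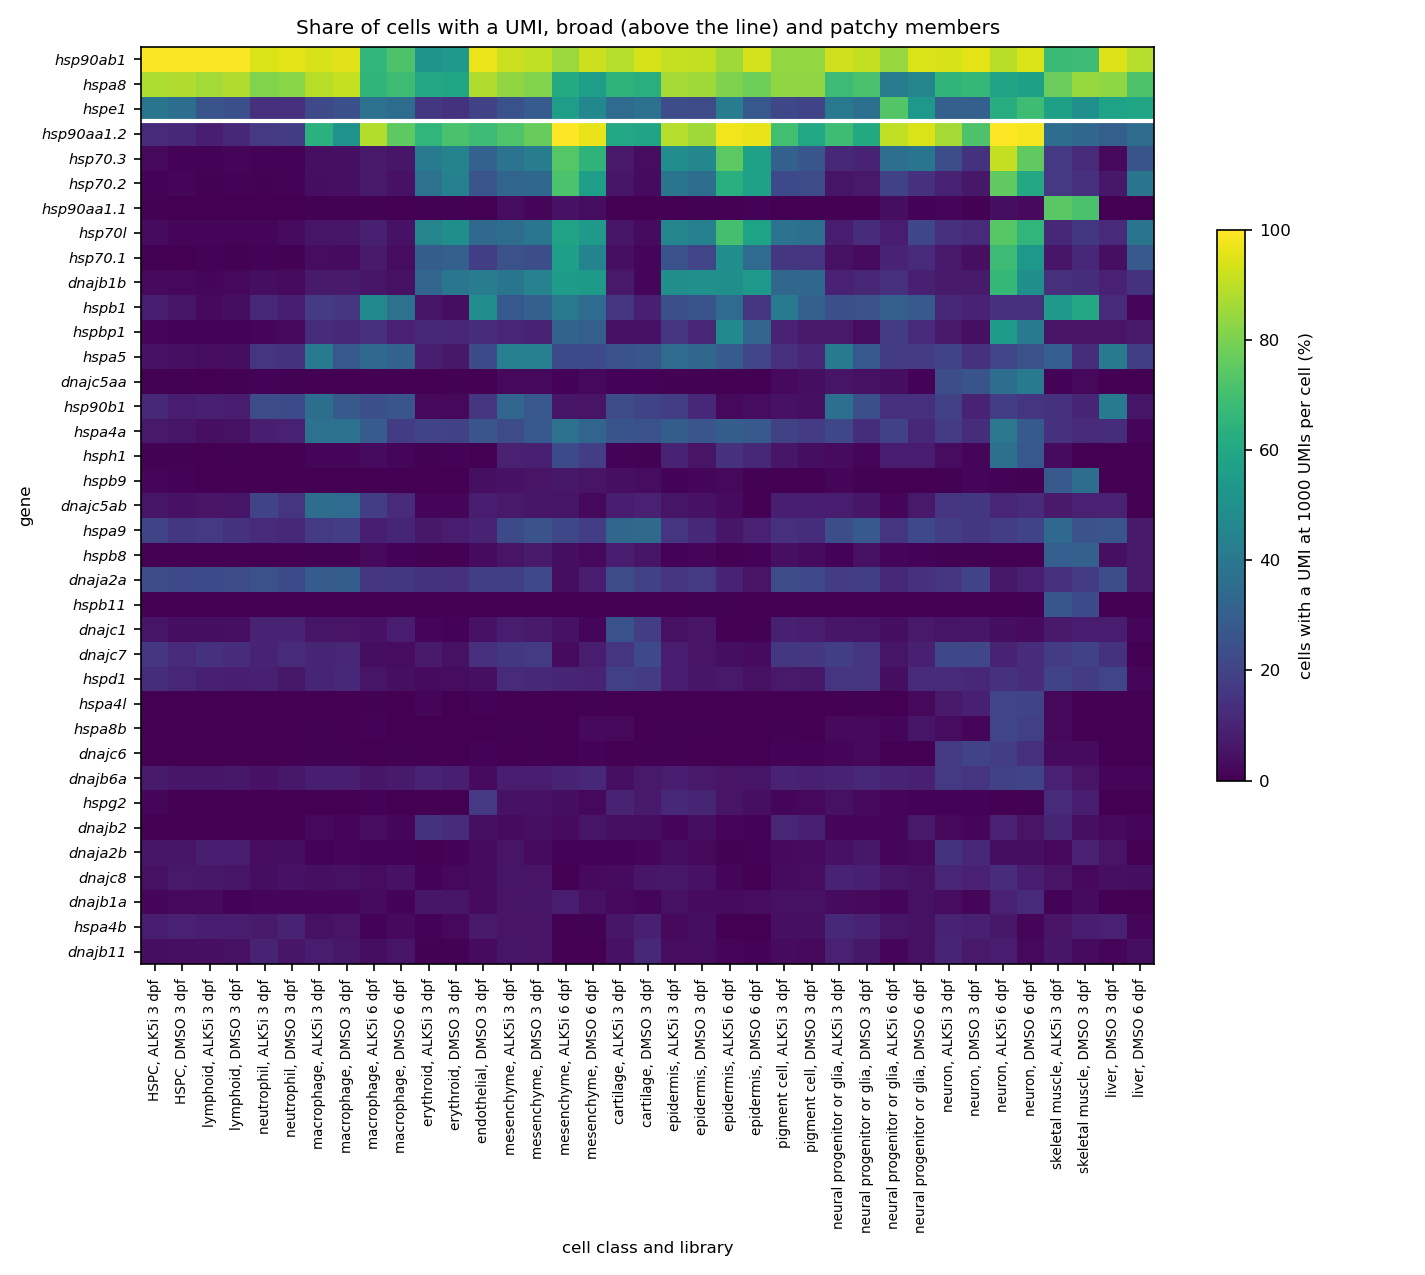
Heat map of the share of cells with at least 1 UMI of each broad (above the white line) and patchy member (rows) in the 37 combinations of cell class and library (columns), with every cell thinned to 1000 UMIs; the colour scale is the % of cells. The rows of hsp90ab1 and hspa8 are bright throughout, hsp70.3 spans 0.912% to 91.0%, and hsp90aa1.1 is bright only in the skeletal muscle-like columns.

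Patchy members included stress-induced genes that were high in many unrelated classes and genes that were high in 1 tissue. Of 19 members that textbooks give as heat-inducible, 2 were broad, 15 patchy and 2 rare. Of 9 that they give as ER stress genes, 3 were patchy and 6 rare. The heat-inducible list holds hsp70.1, hsp70.2, hsp70.3, hsp70l, hsp90aa1.1, hsp90aa1.2, hsph1, hspa4a, dnajb1a, dnajb1b and dnajb5. It also holds hspb1, hspb8, hspb9, hspb11, hspb15, hspd1, hspe1 and hspa8. Its counts, medians and sums below thus include hspa8 and hspe1, which are also named as broad members. By family, the 5 exchange factors (hsph1, hspa4a, hspa4b and hspa4l of the HSP110 family, and hspbp1) were all patchy, as were 4 of 5 inducible HSP70 members, 3 of 4 HSP90 members and 4 of 9 small HSPs. The J-domain families were mostly rare: 3 of 5 DNAJA, 9 of 14 DNAJB and 26 of 32 DNAJC members. The rare members held between 12 UMIs (hspa12a.1) and 7060 UMIs (dnajb12a) over all deposited barcodes, with a median of 1114.5, and the highest class share among them was 8.82% (hspa12b in endothelial-like DMSO cells). Without thinning, where deeper cells have more chances to show a UMI, 8 members were broad, 57 patchy and 22 rare. The split into broad and rare is therefore a statement at 1000 UMIs, and a rare member may be read in more cells than it shows.

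The HSP90 genes divided the classes among them. In HSPC-like cells of 3 dpf hsp90ab1 stood at 5153 CPM (ALK5i) and 5667 CPM (DMSO). In lymphoid-like cells of that stage it stood at 5336 and 5772 CPM, and these were the highest levels of the named blood classes. Its stress-inducible relative hsp90aa1.2 held 240 CPM (ALK5i) and 173 CPM (DMSO) in the HSPC-like class and 139 and 170 CPM in the lymphoid-like one. It therefore made up 4.46% (ALK5i) and 2.96% (DMSO) of the UMIs of both genes in HSPC-like cells, 2.54% and 2.86% in lymphoid-like cells and 8.84% and 6.27% in neutrophil-like cells. In macrophage-like cells of 3 dpf this share was 49.2% and 38.5%, in erythroid-like cells 75.8% and 80.6%, and in neuron-like cells 64.1% and 52.6%. At 6 dpf it was 85.8% (ALK5i) and 78.9% (DMSO) in macrophage-like cells and 88.4% and 89.7% in neuron-like cells. In the progenitor, lymphoid and neutrophil classes nearly all UMIs of this pair were thus hsp90ab1, and the other classes held both.

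Zebrafish hsp90aa1.1, which is needed for myosin folding in muscle, was found mainly in skeletal muscle-like cells. It stood at 2232 CPM (ALK5i) and 2122 CPM (DMSO) there at 3 dpf, against 7.46 and 8.17 CPM in macrophage-like cells of that stage. After thinning, 74.2% and 71.4% of skeletal muscle-like cells carried it, against 0.483% and 0.076% of HSPC-like cells, a class not known to use it. The ER member hsp90b1 was highest in liver-like cells of 3 dpf, with 1172 CPM (ALK5i) and 680 CPM (DMSO), and in macrophage-like cells, with 685 and 470 CPM. It was low in erythroid-like cells, with 75.2 and 22.5 CPM.

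Among the constitutive and organelle HSP70 genes, hspa8 stayed within a narrow range at 3 dpf: 2378 CPM (ALK5i) and 2643 CPM (DMSO) in macrophage-like, 2088 and 2302 CPM in HSPC-like and 1139 and 1092 CPM in erythroid-like cells. The ER chaperone hspa5, also known as BiP, spanned a wider range. At 3 dpf it stood at 1377 and 908 CPM in liver-like cells, 827 and 494 CPM in macrophage-like cells, 65.8 and 45.1 CPM in HSPC-like cells and 38.2 and 44.3 CPM in lymphoid-like cells. The mitochondrial member hspa9 was at 361 and 422 CPM in cartilage-like cells and stood at 193 and 199 CPM in macrophage-like cells. In neuron-like cells hspa8b, named as a paralogue of hspa8, was at 138 CPM (ALK5i) and 238 CPM (DMSO) at 6 dpf. At 3 dpf it held 183 of the 4916509 UMIs (ALK5i) and 95 of the 5239390 UMIs (DMSO) of that class. These are counts and not CPM, and the level was lower than at 6 dpf in both libraries. It was at 0.87 CPM (3 UMIs, ALK5i) and 0 CPM (DMSO) in HSPC-like cells. Of the mitochondrial chaperonin pair, hspe1 reached 1522 and 1201 CPM and hspd1 481 and 384 CPM in liver-like cells of 3 dpf.

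The inducible HSP70 genes hsp70.1, hsp70.2, hsp70.3, hsp70l and hspa1b are taken as closely related copies, though their sequences were not compared here. Reads shared by the copies may have been split among them or lost in the counting, which was not checked. Single copies are therefore uncertain. Their sum is used below, and it may leave out shared reads. The sum ranged widely between classes at 3 dpf. Among the named classes it was lowest in lymphoid-like, neutrophil-like and HSPC-like cells: 53.9 CPM (ALK5i) and 53.6 CPM (DMSO) in lymphoid-like, 97.8 and 87.2 CPM in neutrophil-like and 102 and 49.3 CPM in HSPC-like cells. Macrophage-like cells held 406 and 330 CPM. It was highest in erythroid-like cells, with 4460 and 5322 CPM, followed by mesenchyme-like cells with 4138 and 3518 CPM, epidermis-like cells with 3316 and 2662 CPM, endothelial-like cells with 2852 and 2107 CPM and pigment cell-like cells with 2799 and 2194 CPM. Neuron-like cells stood at 951 and 555 CPM at 3 dpf.

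**Figure D2:**
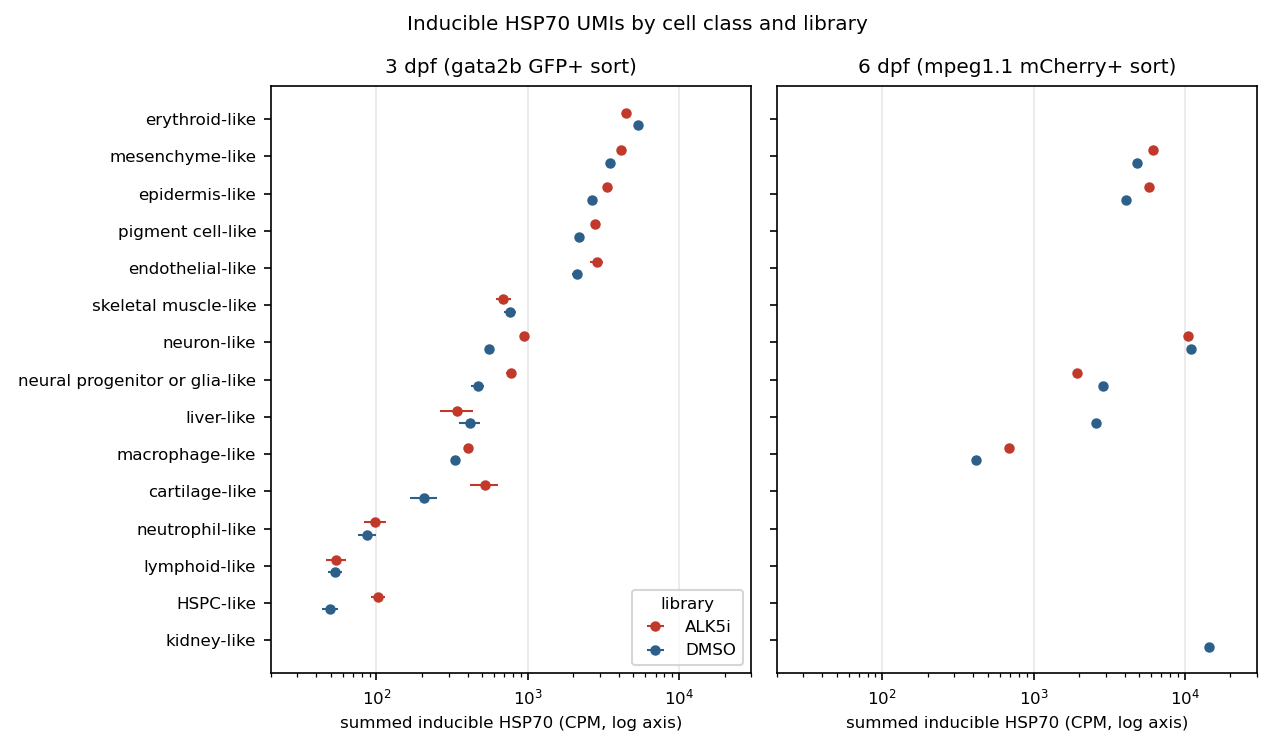
Summed level of the 5 inducible HSP70 genes in each cell class (CPM, x axis, log scale), at 3 dpf and 6 dpf in separate panels, with ALK5i and DMSO as 1 point each per class and bars for the exact 95% Poisson interval, which covers counting error only. At 3 dpf the lymphoid-like, neutrophil-like and HSPC-like classes lie at the low end. Erythroid-like cells of 3 dpf lie at the high end, at 4460 and 5322 CPM. At 6 dpf kidney-like DMSO cells reach 14475 CPM, a level pooled over cells of unequal depth. At 1000 UMIs per cell their mean of 7.90 such UMIs is below that of neuron-like cells, 18.6 (ALK5i) and 14.4 (DMSO).

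At 6 dpf the tissue cells stood higher still. Neuron-like cells were at 10536 CPM (ALK5i) and 10909 CPM (DMSO), epidermis-like cells at 5758 and 4059 CPM, mesenchyme-like cells at 6206 and 4814 CPM, and 50 kidney-like cells of the DMSO library at 14475 CPM. The kidney-like level is pooled over cells of unequal depth. At 1000 UMIs per cell, 41 of these cells held a mean of 7.90 such UMIs and a median of 5. In neuron-like cells the means were 18.6 (ALK5i) and 14.4 (DMSO), so the kidney-like class is not read as the highest. Macrophage-like cells of the same libraries were at 692 and 414 CPM, and neural progenitor or glia-like cells at 1932 and 2861 CPM. Every cell had gone through digestion at 37 °C. Genes of the immediate early response, a list often raised by tissue digestion, summed to 23759.7 CPM in those kidney-like cells, again a pooled level that a few cells may carry. They summed to 16445 and 15955 CPM in mesenchyme-like and 2099 and 2038 CPM in erythroid-like cells of 3 dpf. Erythroid-like cells were thus high in inducible HSP70 and low in immediate early genes. The part of digestion in the inducible HSP70 levels was not tested.

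The share of cells with an inducible HSP70 UMI separated the classes in a broadly like order. At 1000 UMIs per cell it was 58.9% (ALK5i) and 62.5% (DMSO) in erythroid-like, 67.9% and 66.8% in epidermis-like, 33.5% and 24.1% in neuron-like and 9.16% and 9.66% in macrophage-like cells of 3 dpf. It was 2.75% and 4.56% in neutrophil-like, 3.60% and 4.14% in lymphoid-like and 5.12% and 3.72% in HSPC-like cells. Free RNA in droplets can also give such UMIs, and its level was not measured. The neutrophil-like and HSPC-like shares are not read as above the lymphoid-like ones. At 6 dpf the share was 16.2% (ALK5i) and 10.6% (DMSO) in macrophage-like, 93.7% and 84.4% in neuron-like and 97.0% and 84.8% in epidermis-like cells. Lymphoid-like cells of 6 dpf, only 27 and 29 at this depth, were at 14.8% and 10.3%. The macrophage-like shares of 6 dpf are therefore not read as above the lymphoid-like ones either. Unthinned, the macrophage-like shares were 13.6% and 17.2% at 3 dpf and 45.0% and 42.2% at 6 dpf, so the order of the libraries at 3 dpf is not read from them.

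Within macrophage-like cells the UMIs of these genes sat in few cells. The 10% of cells with the most of them held 95.5% (ALK5i) and 92.0% (DMSO) at 3 dpf, and 103 of 9204 and 108 of 9595 cells held at least 50% of all. The top 10% held 84.9% and 88.9% at 6 dpf, where 6 and 4 cells held at least 50%. A single cell of 6 dpf carried 253 of the 1630 UMIs in the ALK5i library, and another 374 of the 1744 UMIs in the DMSO library. At 3 dpf the cells fell into clusters with very different levels. Cluster 13 stood at 3836 CPM (ALK5i) and 3588 CPM (DMSO), cluster 5, led by the microglia genes apoeb and p2ry12, at 1994 and 1746 CPM, and cluster 0 at 59.8 and 55.7 CPM. Cluster 20 also had apoeb and p2ry12 among its leading genes but stood at only 252 and 147 CPM. The high level was thus not shared by both clusters led by these microglia genes. In cluster 13 the immediate early gene fosab was at 1194 and 793 CPM, the highest of the macrophage-like clusters, and the immediate early list summed to 12319 and 11447 CPM.

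Other members appeared in the same macrophage-like cells. At 3 dpf and 1000 UMIs per cell, dnajb1b, the J-domain partner of inducible HSP70, was found in 44.2% of ALK5i cells with an inducible HSP70 UMI and 3.61% of those without. In DMSO cells these shares were 39.8% and 3.60%. For hspa5 the shares were 67.5% with and 38.5% without in ALK5i cells, and 55.5% and 24.3% in DMSO cells. The stress-inducible hsp90aa1.2 was found in 89.0% and 61.4% of ALK5i cells and in 78.3% and 48.4% of DMSO cells. Of the broad members, hspa8 and hsp90ab1 were near their ceiling in both kinds of cell: hspa8 was found in 90.4% with and 89.3% without in ALK5i cells, and in 90.8% and 91.4% in DMSO cells. Likewise hsp90ab1 was found in 92.4% and 94.2% of ALK5i cells, and the patchy J-domain gene dnaja2a in 26.5% and 29.5%. The mitochondrial members were more frequent in cells with inducible HSP70: hspe1 was found in 28.3% with and 21.6% without in ALK5i cells and in 30.6% and 23.6% in DMSO cells, hspa9 in 23.6% and 16.4% of ALK5i cells and 22.7% and 17.5% of DMSO cells, and hspd1 in 14.7% and 9.98% of ALK5i cells and 17.8% and 10.9% of DMSO cells. The immediate early gene fosab moved with them, at 16.5% and 1.31% of ALK5i cells and 18.9% and 1.56% of DMSO cells. By contrast atf3 was at 37.7% and 44.0% of ALK5i cells. At 6 dpf the mitochondrial members did not all follow. In DMSO cells, 40 with and 337 without, hspe1 was at 27.5% and 36.2%, hspa9 at 7.5% and 10.7% and hspd1 at 2.5% and 4.45%. In ALK5i cells hspe1 was at 39.0% and 36.8%, hspa9 at 14.6% and 7.08% and hspd1 at 4.88% and 5.66%. Clusters of 3 dpf differed too: hspa5 stood at 2396 CPM (ALK5i) and 1879 CPM (DMSO) in cluster 5 and at 450 and 207 CPM in cluster 0. The part of clusters in these shares was not tested.

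**Figure D3:**
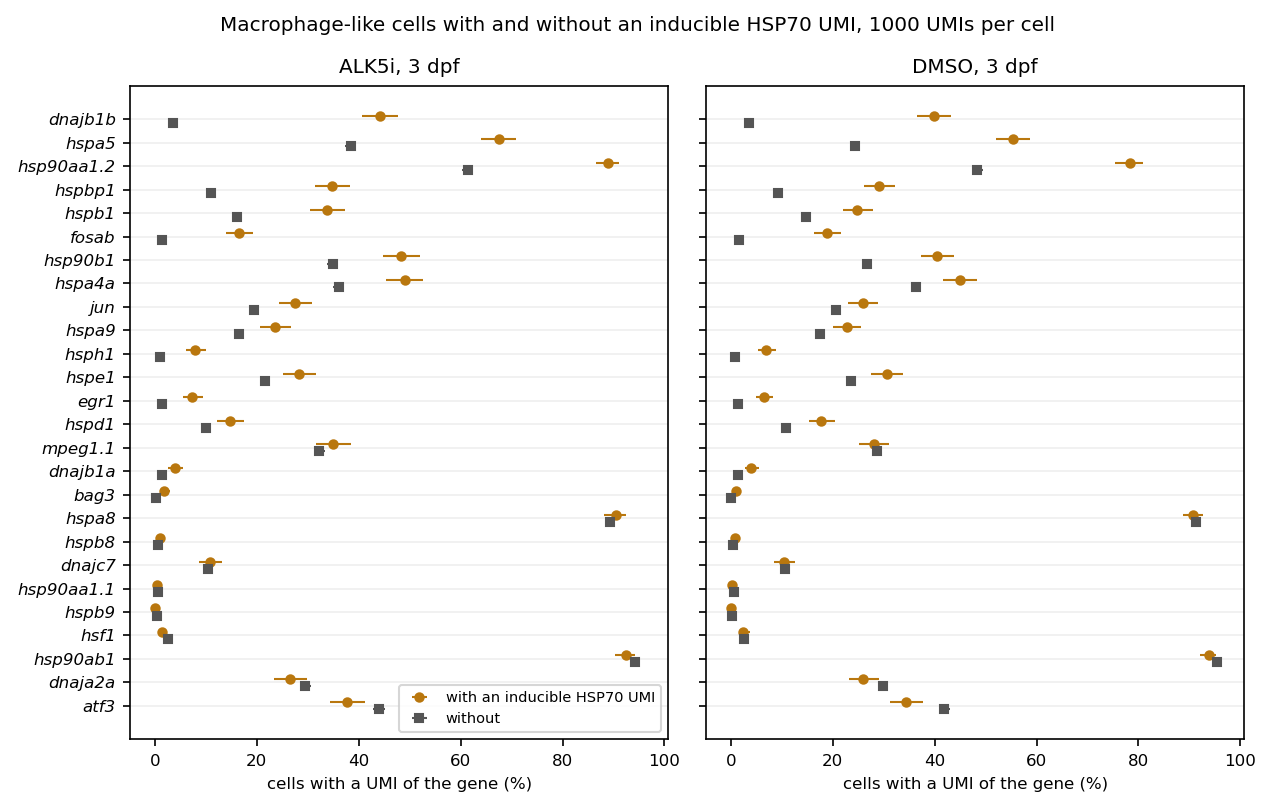
Share of macrophage-like cells of 3 dpf with a UMI of each listed gene (% of cells, at 1000 UMIs per cell), for cells with and without an inducible HSP70 UMI, in separate panels for ALK5i and DMSO, with bars for exact 95% binomial intervals. Cells with inducible HSP70 show dnajb1b in 44.2% (ALK5i) and 39.8% (DMSO), against 3.61% and 3.60% without, while hspa8 and hsp90ab1 are near 90% in both kinds of cell.

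Several small HSPs were high in skeletal muscle-like cells of 3 dpf. In ALK5i and DMSO cells of this class, hspb1 stood at 2149 and 2059 CPM, hspb9 at 1405 and 1590 CPM, hspb11 at 707 and 572 CPM, hspb8, the partner of bag3 in clearing damaged muscle proteins, at 538 and 458 CPM, hspb6 at 68.0 and 84.6 CPM and hspb7 at 57.1 and 54.7 CPM. The other 3 were near the limit of detection: hspb2 held 1 and 2 UMIs and hspb3 held 2 and 10 UMIs in that class, and hspb15 reached at most 15.7 CPM, in neural progenitor or glia-like DMSO cells of 3 dpf. Outside muscle, hspb11 held 3 and 4 UMIs in all macrophage-like cells of 3 dpf. The 50 kidney-like cells of 6 dpf held 878 CPM of hspb8, a pooled level that a few cells may carry. The most widespread small HSP was hspb1, which binds actin and damaged proteins. It was highest in mesenchyme-like cells of 6 dpf, with 13841 CPM (ALK5i) and 6485 CPM (DMSO). At 3 dpf endothelial-like cells held 2557 CPM (ALK5i) and 1443 CPM (DMSO) of it, and lymphoid-like cells 35.7 and 54.2 CPM.

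Several J-domain genes differed in level between classes. Of the co-chaperones of secretory and synaptic vesicles, dnajc5aa reached 10% of cells in 4 of the 37 combinations, with its highest share in neuron-like cells. Its relative dnajc5ab did so in 10 and was found in several lineages. In neuron-like cells dnajc5aa was at 265 CPM (ALK5i) and 408 CPM (DMSO) at 6 dpf and at 243 and 284 CPM at 3 dpf, and in macrophage-like cells of 3 dpf at 1.46 and 2.36 CPM. In macrophage-like cells dnajc5ab was at 147 and 154 CPM at 6 dpf and at 477 CPM in both libraries of 3 dpf, and it made up 99.7% and 99.5% of the UMIs of both genes there at 3 dpf. In neuron-like cells of 3 dpf dnajc5ab made up 40.0% and 37.6%, and in neutrophil-like cells of 3 dpf 97.1% and 96.8%. The neuronal clathrin-uncoating factor dnajc6, or auxilin, was at 192 and 221 CPM in neuron-like and at 4.09 and 6.31 CPM in macrophage-like cells of 3 dpf. Of the DNAJA paralogues, dnaja2a stood at 347 and 356 CPM and dnaja2b at 11.5 and 14.4 CPM in macrophage-like cells of 3 dpf. In neuron-like cells of 3 dpf dnaja2b was at 135 and 126 CPM. A share of 10% of cells was reached by dnaja2a in 30 of the 37 combinations and by dnaja2b in 2, so dnaja2a was widespread. In erythroid-like cells of 3 dpf dnajb2 was at 147 and 134 CPM, against 1.16 and 3.27 CPM in HSPC-like cells.

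Some exchange factors were high in neuron-like cells of 6 dpf. There hspbp1 stood at 734 CPM (ALK5i) and 678 CPM (DMSO), hspa4a at 440 and 382 CPM, hsph1 at 401 and 382 CPM and hspa4l at 145 and 211 CPM. The other exchange factor, hspa4b, reached 10% of cells only in neural progenitor or glia-like ALK5i cells of 3 dpf, at 11.1%. Over all kept cells hspa4b was at 64.7 CPM (ALK5i) and 68.2 CPM (DMSO) at 3 dpf and at 13.2 and 18.9 CPM at 6 dpf. The 50 kidney-like DMSO cells held 1784 CPM of hspbp1, a pooled level that a few cells may carry. The J-domain gene dnajb1b stood at 941 and 1160 CPM in neuron-like cells of 6 dpf and was highest in mesenchyme-like cells of 3 dpf, with 1831 and 1632 CPM. In neuron-like cells of 3 dpf hsph1 was at 38.2 and 26.0 CPM and hspbp1 at 65.3 and 37.0 CPM, so both were at least 10-fold higher at 6 dpf. Macrophage-like cells of 3 dpf held hspa4a at 501 and 505 CPM. This was above neuron-like cells of that stage, at 208 and 157 CPM, and of 6 dpf, at 440 and 382 CPM.

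The prefix also takes in 2 genes that are not chaperones. Perlecan, a proteoglycan of basement membranes encoded by hspg2, was at 295 CPM (ALK5i) and 220 CPM (DMSO) in endothelial-like cells, 132 and 97.8 CPM in skeletal muscle-like cells and 1.63 and 1.44 CPM in macrophage-like cells of 3 dpf. The HSPB1-associated protein gene hspbap1 was rare, with 7.74 and 9.08 CPM in macrophage-like cells of 3 dpf.

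Some ER chaperones stood apart in macrophage-like cells of 3 dpf after ALK5 inhibition. The level of hspa5 was 827 CPM (14745 UMIs) in the ALK5i library and 494 CPM (12991 UMIs) in the DMSO library, a log2 ratio of 0.74 [0.71 to 0.78]. Under the alternatives run for it, the ratio lay between 0.74 and 0.83. Some of its ER partners, all low in level, followed: dnajb9b at 13.3 and 6.95 CPM (0.93 [0.65 to 1.22]), dnajc3a, which also restrains the translation block by PERK, at 10.7 and 5.58 CPM (0.94 [0.62 to 1.26]), and the microsomal HSP70 gene hspa13 at 21.4 and 13.1 CPM (0.71 [0.49 to 0.92]). The ER members dnajb11, dnajc3b and dnajc10 stayed inside the 1.5-fold rule. The ER HSP90 gene hsp90b1, at 685 and 470 CPM (0.54 [0.51 to 0.58]), was just inside that rule too. The farthest member was hspa8b, with 7.29 CPM (130 UMIs) and 3.00 CPM (79 UMIs), a log2 ratio of 1.28 [0.87 to 1.70].

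Of 69 members with at least 50 UMIs over these libraries, 6 were higher and 5 lower in ALK5i, where 2.69% of all 12581 tested features were higher and 7.47% lower. The 18 other members had too few UMIs. The sixth higher member was dnajc18, with 3.87 and 2.51 CPM. The lower ones were low in level: dnajc12, a co-chaperone of aromatic amino acid hydroxylases, with 15 and 48 UMIs, dnajc4 with 6.73 and 11.7 CPM, dnajc27 with 2.24 and 3.65 CPM, dnajc5aa with 1.46 and 2.36 CPM and dnajc6 with 4.09 and 6.31 CPM. With 5 CPM added to both sides, 3 members were higher and 0 lower. The members' median log2 ratio was 0.014, beside -0.083 over all tested features. The broad members and the patchy dnaja2a stayed near 0: hsp90ab1 was at 3207 and 3592 CPM (-0.16 [-0.18 to -0.15]), hspa8 at 2378 and 2643 CPM (-0.15 [-0.17 to -0.13]) and dnaja2a at 347 and 356 CPM (-0.04 [-0.08 to 0.01]). The inducible hsp90aa1.2 was at 3109 and 2247 CPM (0.47 [0.45 to 0.49]), and the summed inducible HSP70 genes at 406 and 330 CPM (0.30 [0.25 to 0.34]).

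**Figure D4:**
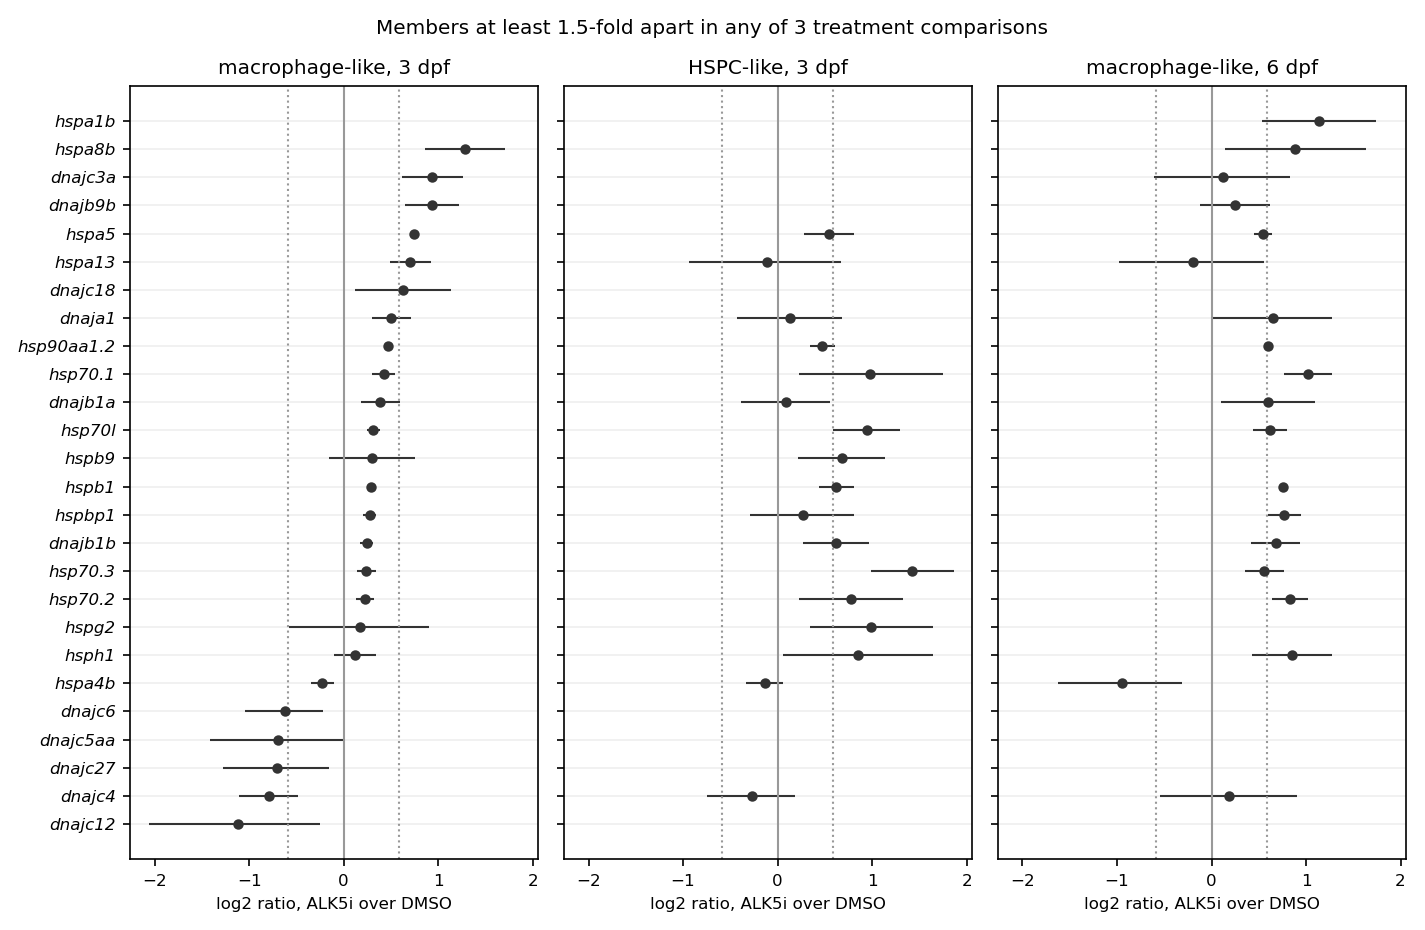
Log2 ratio of CPM, ALK5i over DMSO (x axis), for each member at least 1.5-fold apart in any of the 3 treatment comparisons, with a panel each for macrophage-like cells of 3 dpf, HSPC-like cells of 3 dpf and macrophage-like cells of 6 dpf. Points are ratios of 1 library over 1 library, bars are exact 95% intervals for counting error, dotted lines mark 1.5-fold, and members with under 50 UMIs are not drawn. At 3 dpf the ER genes dnajc3a, dnajb9b, hspa5 and hspa13 lie right of 1.5-fold in macrophage-like cells, and at 6 dpf hspb1 lies at 0.76.

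ER stress genes outside the module were not higher as a list. The textbook ER stress members summed to 1658 CPM in ALK5i and 1071 CPM in DMSO macrophage-like cells, with a median log2 ratio of 0.62 and 4 of 8 tested higher. The other ER stress genes, chosen as foldases, transcription factors and targets of the unfolded protein response outside the module, summed to 3993 and 4072 CPM with a median of 0.01. Of these 25 tested genes 2 were higher, creld2 (0.86) and pdia4 (0.72), and 1 lower, the asparagine synthetase gene asns (-0.88). The heat-inducible members had a median of 0.23 and 0 of 16 tested passed the rule, and the chaperone partners outside the module had a median of -0.06, with bag3 (0.92) the 1 of 40 that was higher. Immediate early genes summed to 7101 and 6627 CPM. Haemoglobin and other erythroid markers summed to 328 and 682 CPM and pigment markers to 2037 and 2475 CPM in the same cells, and macrophage markers to 25902 and 25984 CPM. The part of such differences in the ER chaperone levels was not tested.

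The ratio for hspa5 was above 0 in 9 of 9 macrophage-like clusters with at least 50 cells in each library of 3 dpf, between 0.11 and 1.73. That for hsp90b1 was above 0 in 8 of 9, between -0.01 and 0.62. It was below 0 in 9 of 9 for hsp90ab1 and for hspa8. The summed inducible HSP70 genes were above 0 in 9 of 9, and cluster 19, led by ferritin genes and hmox1a, had the largest gap with 1808 CPM (ALK5i, 144 cells) and 646 CPM (DMSO, 139 cells). Since every cluster compares the same pair of libraries, these counts are not repeats of the experiment.

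Other classes of the same libraries showed some of the ER members too. Across 14 classes of 3 dpf, the ALK5i level of hsp90b1 was above the DMSO level in 14, with log2 ratios of 0.06 to 1.74. For hspa5 it was above in 12 of 14, between -0.22 in lymphoid-like and 0.90 in neuron-like cells, with a median of 0.52. For the ER J-domain gene dnajb11 it was above in 10 of 11. Of the other textbook ER members, dnajb9b was above in 2 of 2 tested classes and dnajc3a in 3 of 3. The rest were less even, with hspa13 above in 4 of 5, dnajc3b in 4 of 7 and dnajc10 in 3 of 5. By contrast hsp90ab1 was above in 3 of 14 and hspa8 in 2 of 14. Some members outside the ER leaned to ALK5i as well, with hsp90aa1.2 and hsp70l above in 10 of 14 each, hspb1 in 11 of 14 and hsph1 in 6 of 6. The direction was thus not particular to ER members. The higher hspa5 level was thus seen outside macrophage-like cells as well.

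In HSPC-like cells of 3 dpf the ratio of the inducible members depended on the processing. The summed inducible HSP70 genes were at 102 CPM (353 UMIs in 1070 cells) in ALK5i and at 49.3 CPM (286 UMIs in 1348 cells) in DMSO, a log2 ratio of 1.06 [0.83 to 1.29]. This value rested on few cells. In the ALK5i library 11 cells held at least 50% of the UMIs, and in the DMSO library 55 did. Cells with such a UMI numbered 93 of the ALK5i and 198 of the DMSO cells. With cells of at least 1000 UMIs only, clustered anew, the log2 ratio was -0.23, and with called doublets kept it was 0.21, so no direction is read from it.

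Of 52 members tested in HSPC-like cells, 9 were higher and 0 lower in ALK5i, where 1.92% of 9894 tested features were higher and 5.67% lower. The members' median log2 ratio was 0.14, beside -0.049 over all features. The higher members were hsp70.3 (33.6 and 12.6 CPM), hspg2 (13.3 and 6.72 CPM), hsp70.1 (9.86 and 5.00 CPM), hsp70l (42.1 and 21.9 CPM), the exchange factor hsph1 (8.70 and 4.82 CPM), hsp70.2 (16.8 and 9.82 CPM), hspb9 (23.2 and 14.5 CPM), hspb1 (131 and 84.8 CPM) and dnajb1b (38.3 and 25.0 CPM). All were under 500 UMIs in each library. The inducible HSP70 copies among them may share reads and are counted singly, here and in the other comparisons. With at least 1000 UMIs per cell 1 member was higher, and with doublets kept 2 were higher and 1 lower. The broad members stayed inside the rule, with hspe1 at 580 and 492 CPM (0.24 [0.16 to 0.32]), hsp90ab1 at 5153 and 5667 CPM (-0.14 [-0.16 to -0.11]) and hspa8 at 2088 and 2302 CPM (-0.14 [-0.18 to -0.10]). Of the heat-inducible members 8 of 14 were higher and 0 lower, with a median of 0.62, while the chaperone partners outside the module had a median of -0.04, with 0 of 33 higher and trap1 (-0.81) and hsf1 (-0.66) lower. The ER stress list outside the module had 1 of 25 higher, the transcription factor xbp1, at 1051 CPM (ALK5i) and 634 CPM (DMSO). Immediate early genes were at 1345 and 1343 CPM. Erythroid markers summed to 346 and 671 CPM and pigment markers to 1503 and 2018 CPM in these cells, beside HSPC markers at 1879 and 2089 CPM.

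In macrophage-like cells of 6 dpf most heat-inducible members were higher. The small HSP hspb1 was at 6960 CPM (16386 UMIs) in ALK5i and at 4121 CPM (17371 UMIs) in DMSO, a log2 ratio of 0.76 [0.73 to 0.79], and hsp90aa1.2 at 8351 and 5514 CPM (0.60 [0.57 to 0.63]). All members together held 2.23% (ALK5i) and 1.58% (DMSO) of the UMIs of the class. The summed inducible HSP70 genes were at 692 and 414 CPM (0.74 [0.64 to 0.84]). These UMIs were found in 116 ALK5i and 168 DMSO cells, but the sum rested on few of them. In the ALK5i library 6 cells, and in the DMSO library 4, held at least as many of these UMIs as all other cells together. A single cell carried 253 of the 1630 UMIs in ALK5i, and another 374 of the 1744 in DMSO. The log2 ratio of the sum moved between 0.74 and 1.98 with the cell filters and the clustering, so its size is not read.

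Of 43 members tested there, 12 were higher and 1 lower in ALK5i, where 5.4% of 5699 tested features were higher and 7.86% lower. The members' median was 0.24, beside -0.046. The farthest were hspa1b (22.9 and 10.4 CPM, 54 and 44 UMIs), hsp70.1 (116 and 57.4 CPM), hspa8b (14.0 and 7.59 CPM), hsph1 (41.2 and 22.8 CPM), hsp70.2 (202 and 113 CPM), the exchange factor hspbp1 (229 and 134 CPM), hspb1 and dnajb1b (99.4 and 62.2 CPM). The lower one was hspa4b of the HSP110 family, with 11.5 CPM (27 UMIs) and 22.1 CPM (93 UMIs), a log2 ratio of -0.94 [-1.62 to -0.31]. With at least 200 UMIs per feature 7 were higher and 0 lower. Of the 14 heat-inducible members tested, 8 were higher and 0 lower, 14 had a ratio above 0, and their sum was 18484 and 12253 CPM. This list and its sum include the broad hspa8 and hspe1. The ER gene hspa5 was at 706 and 483 CPM (0.55 [0.45 to 0.64]), but hsp90b1 was at 394 and 404 CPM (-0.04 [-0.15 to 0.08]). The textbook ER stress members had a median of 0.12, the ER stress genes outside the module one of -0.07 with 0 of 21 higher and creld2 (-0.69) lower, and the chaperone partners outside the module one of 0.10 with bag3 (1.11) higher and cdc37 (-0.63) lower. Immediate early genes moved too: their median was 0.34, 7 of 27 were higher and 1 lower, and they summed to 4304 CPM (ALK5i) and 3848 CPM (DMSO). The part of that response in the heat-inducible levels was not tested.

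Both macrophage-like clusters of 6 dpf with at least 50 cells in each library had the higher inducible HSP70 level in ALK5i: cluster 1 with 611 and 246 CPM and cluster 2 with 396 and 104 CPM. Some clusters had macrophage markers, but their leading genes held more markers of another class than of macrophages. Cells of these clusters were 9.58% (ALK5i) and 8.33% (DMSO) of kept cells at 6 dpf. They were kept out of the class, by a condition set after the clusters had been seen. They held 445 and 64.1 CPM. With them counted as macrophage-like the log2 ratio was 0.98. The surrounding tissues did not share one direction. The same sum was at 5758 CPM (ALK5i) and 4059 CPM (DMSO) in epidermis-like cells, at 6206 and 4814 CPM in mesenchyme-like cells, at 10536 and 10909 CPM in neuron-like cells and at 1932 and 2861 CPM in neural progenitor or glia-like cells of 6 dpf.

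Between stages, macrophage-like cells held more of some inducible members and less of hsp90ab1 and hspa8 at 6 dpf. In DMSO, hspb1 was at 4121 CPM at 6 dpf and 530 CPM at 3 dpf (log2 ratio 2.96 [2.93 to 2.99]), and hsp90aa1.2 at 5514 and 2247 CPM (1.29 [1.27 to 1.32]). Against this hsp90ab1 was at 1474 and 3592 CPM (-1.28 [-1.32 to -1.25]) and hspa8 at 1206 and 2643 CPM (-1.13 [-1.17 to -1.09]). The median over all tested features was -1.06, so the lower values of hsp90ab1 and hspa8 were not particular to them. The third broad member, hspe1, was higher at 6 dpf, as given below. The 9 small HSPs summed to 4179 and 569 CPM, nearly all from hspb1. The sort differed between the stages, and stage, sort and library cannot be told apart.

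**Figure D5:**
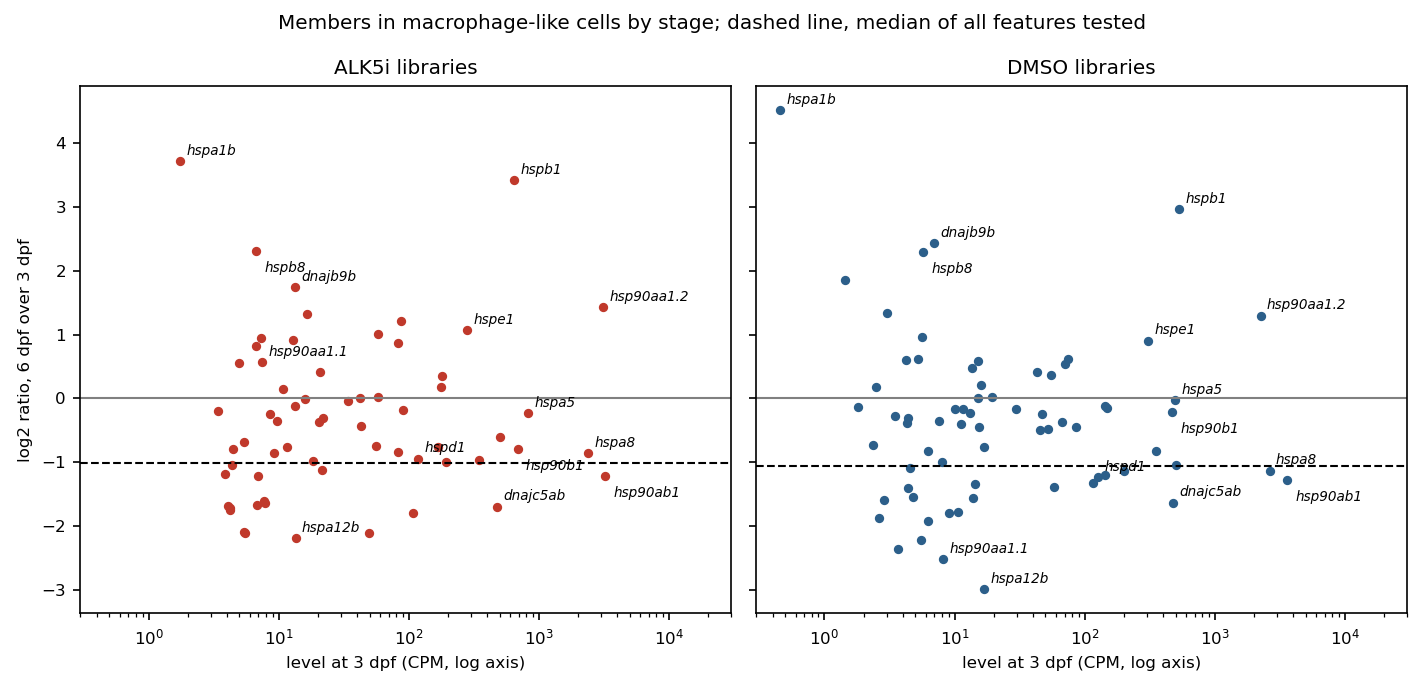
Log2 ratio of CPM in macrophage-like cells, 6 dpf over 3 dpf (y axis), against the CPM at 3 dpf (x axis, log scale), 1 point per tested member, for the ALK5i and the DMSO libraries in separate panels; the dashed line is the median of all tested features. A side with fewer than 3 UMIs was set to 3 UMIs. In both panels hspb1 and hsp90aa1.2 lie above 0, at 3.42 and 1.43 in ALK5i and 2.96 and 1.29 in DMSO, and hsp90ab1 lies near the dashed line, at -1.22 and -1.28.

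Of 69 members tested in DMSO, 12 were higher and 28 lower at 6 dpf, where 8.96% of 11548 tested features were higher and 65.1% lower. The median log2 ratio over all of these features was -1.06, and the members' median was -0.36. Scaled to the median feature, 39 members were higher and 8 lower, so hsp90ab1 and hspa8 lay close to the median feature, and 6 members called lower by CPM (dnajc2, dnaja2a, dnajc25, dnajc5ga, dnajc5aa and hspa4a) lay above it. The farthest higher members were hspa1b (10.4 CPM from 44 UMIs and 0.456 CPM from 12 UMIs), hspb1, the ER gene dnajb9b (37.5 and 6.95 CPM), hspb8 (28.0 and 5.74 CPM), hspg2 (5.22 and 1.44 CPM), hspa8b (7.59 and 3.00 CPM), hsp90aa1.2 and dnajc3a (10.9 and 5.58 CPM). The farthest lower ones were the endothelial HSP70-like gene hspa12b (9 and 447 UMIs), hsp90aa1.1 (6 and 215 UMIs), dnajc27 (1 and 96 UMIs), dnajc14 (5 and 145 UMIs), dnajc6 (7 and 166 UMIs), hspa12a (1 and 69 UMIs), hspbap1 (11 and 239 UMIs) and the mitochondrial dnajc11a (13 and 278 UMIs). The vesicle co-chaperone dnajc5ab was at 154 and 477 CPM (-1.63 [-1.75 to -1.52]), below the median feature, and hspa5 at 483 and 494 CPM (-0.03 [-0.10 to 0.04]), above it.

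The ALK5i libraries gave like values for the same members, with hspb1 at 6960 CPM at 6 dpf and 649 CPM at 3 dpf (3.42 [3.39 to 3.46]), hspb8 at 33.1 and 6.67 CPM (2.31 [1.88 to 2.74]), hsp90ab1 at 1379 and 3207 CPM (-1.22 [-1.27 to -1.17]), dnajc5ab at 147 and 477 CPM (-1.69 [-1.85 to -1.54]) and hspa12b at 2.97 and 13.5 CPM. For hsp90aa1.1 the ALK5i pair went the other way, with 11.0 CPM (26 UMIs) at 6 dpf and 7.46 CPM (133 UMIs) at 3 dpf. The DMSO ratio of that gene was itself 1.48 at a coarser clustering (resolution 0.5). The mitochondrial pair split by member: in DMSO hspe1 was at 573 CPM at 6 dpf and 306 CPM at 3 dpf (0.90 [0.84 to 0.97]), and hspd1 at 54.1 and 127 CPM (-1.23 [-1.43 to -1.04]). The heat-inducible members had 5 of 16 higher and 5 lower with a median of 0.30, the textbook ER stress members 2 of 8 higher and 1 lower with a median of -0.19, and the chaperone partners outside the module 2 of 36 higher and 23 lower with a median of -0.73. Immediate early genes had a median of -0.95, with 1 of 33 higher and 26 lower. Over all tested features the median was -1.06, with 8.96% higher and 65.1% lower, so this list lay close to the median feature.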

How the data were processed

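Single-cell RNA was measured in 4 libraries made with the Chromium Next GEM Single Cell 3′ v4 kit, 1 per group. The deposited values are raw counts, UMIs per gene and barcode, which the authors made with Cell Ranger, version 9.0.0 per the file headers and 9.0.1 per the submitters' processing notes, on GRCz11 per the same notes. Library totals were 60001771 (ALK5i) and 97212191 (DMSO) UMIs at 3 dpf and 12121332 and 20481201 at 6 dpf. Genes are given by symbol as the deposited tables pair them.

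Cells with at least 500 UMIs, 300 genes and at most 10% mitochondrial UMIs were kept. Scrublet, as in scanpy 1.11.5, called 1930 and 2763 doublets at 3 dpf and 5 and 4 at 6 dpf (ALK5i, then DMSO), which were removed; so few calls at 6 dpf leave doublets there unchecked. Both libraries of a stage were clustered together (2000 variable genes without the members, 30 components, 15 neighbours, Leiden resolution 1) with Python 3.11.15, numpy 2.4.6, scipy 1.17.1, pandas 2.3.3, scikit-learn 1.9.0, leidenalg 0.10.2 and igraph 0.11.9. A cluster took the class with most markers seen in at least 10% of its cells and at least 1.5-fold above other clusters, given at least 3. It was not named when its 10 top genes held more markers of another class than of its own, or when its depth was low. These conditions on names were chosen with the clusters in view. Classes rebuilt this way may differ from the study's own.

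UMIs were summed per class and library. Ratios took features with at least 50 UMIs over both libraries, no pseudocount and exact Clopper-Pearson intervals. A side with fewer than 3 UMIs was set to 3 for the ratio, and such ratios are not printed. The interval method was tested on simulated data. Shares of cells were taken after thinning to 1000 UMIs. Named are the 10 most abundant members in macrophage-like cells, up to 8 members past 1.5-fold in each direction per comparison, the 15 patchy members with the highest shares, and the inducible HSP70, HSP90, chaperonin, small HSP and non-chaperone members; others were named after their values were seen. The members and lists were chosen with earlier results of these data known. By its zebrafish symbol hspb11 was counted as a small HSP, though the human gene of that name serves cilia. Alternatives changed the pseudocount, the minimum UMIs per feature and per cell, the mitochondrial limit, doublet removal, resolution, scaling, thinning depth, the share that defines broad and the clusters counted as macrophage-like.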

Additional observations from a re-analysis of the deposited data

Results flagged for a closer look

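In neural classes the log2 ratio of the summed inducible HSP70 genes was above 0 at 3 dpf and below 0 at 6 dpf, though close to 0 in neuron-like cells of 6 dpf. In neuron-like cells the log2 ratio of ALK5i over DMSO was 0.78 at 3 dpf (951 and 555 CPM) and -0.05 at 6 dpf (10536 and 10909 CPM). In neural progenitor or glia-like cells it was 0.73 at 3 dpf (777 and 468 CPM) and -0.57 at 6 dpf (1932 and 2861 CPM). Over all tested features the median log2 ratio was -0.052 at 3 dpf and -0.295 at 6 dpf in neuron-like cells. The neuron-like value of 6 dpf thus lay above the median feature. In neural progenitor or glia-like cells these medians were -0.014 and -0.068. The 10% of such DMSO cells of 6 dpf with most inducible HSP70 UMIs held 85.0% of them. The 6 dpf classes were small, with 140 and 257 neuron-like and 53 and 100 neural progenitor or glia-like cells. The difference between the stages was not tested, since each group is 1 library, and the sort differed between the stages too.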

How the results depend on the processing

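No paired analysis was possible because each group holds 1 library, and for the same reason no replicate could be left out. Of 170 alternative values for the main results, 120 stayed close, 49 moved and 1 changed sign, and the members' median log2 ratio in the treatment comparisons lay between -0.0013 and 0.097 (macrophage-like, 3 dpf), 0.11 and 0.21 (HSPC-like) and 0.18 and 0.30 (macrophage-like, 6 dpf). The changed sign was that of the summed inducible HSP70 genes in HSPC-like cells (log2 ratio 1.06), at -0.23 with at least 1000 UMIs per cell and the cells clustered anew. In the main setting, HSPC-like cells under 1000 UMIs held 15 of the 353 (ALK5i) and 5 of the 286 (DMSO) UMIs of these genes. The log2 ratio of the sum was 0.21 with doublets kept, 0.75 with at most 5% mitochondrial UMIs and 1.43 at resolution 0.5. In macrophage-like cells of 3 dpf (0.30) it was 0.23 with at least 1000 UMIs per cell, 0.24 with doublets kept and 0.38 scaled to the median feature. In those of 6 dpf (0.74) it was 1.23, 0.87, 1.98 with at most 5% mitochondrial UMIs, 1.42 at resolution 0.5 and 0.98 with the mixed clusters included. Counts of members past 1.5-fold moved as follows. With 5 CPM added, 3 were higher and 0 lower in macrophage-like cells of 3 dpf and 4 higher in HSPC-like cells. With at least 200 UMIs per feature, 2 were lower in macrophage-like cells of 3 dpf, 3 higher in HSPC-like cells, 7 higher and 0 lower in macrophage-like cells of 6 dpf, and 6 higher and 18 lower between stages. With at least 10 UMIs, 6 were lower in HSPC-like cells and 7 in macrophage-like cells of 6 dpf. With at least 1000 UMIs per cell, 1 was higher in HSPC-like cells and 2 lower in macrophage-like cells of 6 dpf. With doublets kept, 3 were lower in macrophage-like cells of 3 dpf, 2 higher and 1 lower in HSPC-like cells, and 2 lower in macrophage-like cells of 6 dpf, where 3 were lower at resolution 0.5 and 2 with the mixed clusters. Scaled to the median feature, 39 were higher and 8 lower between stages. Broad members numbered 5 at 2000 UMIs or a share of 5%, and 8 without thinning, with 57 patchy and 22 rare. Macrophage-like cells of 3 dpf with an inducible HSP70 UMI were 7.29% (ALK5i) and 6.87% (DMSO) at 500 UMIs, 12.9% and 12.8% at 2000, 13.6% and 17.2% unthinned, and 11.3% and 12.1% with doublets kept; those of 6 dpf were 22.4% and 16.7% at 2000 and 45.0% and 42.2% unthinned. Of 607 alternative values for single genes, 523 stayed on their side of 1.5-fold, 74 fell inside it and 10 changed sign. These were dnajb1b (-0.045) and hsp70l (-0.49) in HSPC-like cells with at least 1000 UMIs per cell, and between stages hsp70.2 (-0.66 at 5% mitochondrial UMIs), hsp90aa1.1 (1.48 at resolution 0.5) and, scaled to the median feature, dnajc2 (0.067), dnaja2a (0.23), dnajc25 (0.24), dnajc5ga (0.30), dnajc5aa (0.33) and hspa4a (0.016). Except for the scaling, which adds 1 constant to every ratio, the cause of these changes was not tested.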

Other observations

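Among macrophage-like clusters of 3 dpf the small HSP gene hspb6 was highest in cluster 1, which was led by the inflammatory genes il6, cxcl11.1 and tnfa, with 78.8 CPM (354 UMIs, ALK5i) and 93.2 CPM (441 UMIs, DMSO). In the whole class it stood at 34.1 and 29.7 CPM. The vesicle co-chaperone dnajc5ab was also highest there, with 609 and 651 CPM, and lowest in cluster 20, led by apoeb and apoc1, with 58.1 and 57.8 CPM. The exchange factor hspbp1 was highest in cluster 5, with 685 and 649 CPM. Of the inducible HSP70 UMIs at 3 dpf, hsp70l made up 43.6% (ALK5i) and 43.1% (DMSO) in macrophage-like cells, 52.6% and 52.1% in pigment cell-like cells, 27.5% and 39.3% in neuron-like cells, 25.5% and 38.1% in skeletal muscle-like cells and 42.2% and 32.6% in endothelial-like cells. Over all cells of 6 dpf it made up 24.9% and 30.6%. These clusters and genes were picked after their values had been seen, and no test was run.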
